A study of Mus musculus with 12 samples.

Results

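Siglecs are lectins of the cell surface that bind sialic acid, the sugar that caps many glycans on proteins and lipids. The listed family genes in this series were Siglec1, Cd22, Cd33, Siglece, Siglecf, Siglecg, Siglech and Siglec15, 8 of the 35976 gene symbols in the count table, chosen by name and not by any measured value. All 8 passed the low-count filter that left 15334 genes for testing, Siglech and Siglec15 only through the WT libraries. Mag, a further family gene outside the list, was followed beside them.

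Most Siglecs of blood cells carry inhibitory tyrosine motifs (ITIMs) in their tails, which recruit the phosphatases encoded by Ptpn6 and Ptpn11 and dampen activation. A smaller group lacks such motifs and pairs instead with the activating adaptor DAP12, the product of Tyrobp. Each member is best known from particular cells: Siglec1 from macrophages, Cd22 and Siglecg from B cells, Cd33 and Siglece from myeloid cells, Siglecf from eosinophils, Siglech from plasmacytoid dendritic cells and Siglec15 from osteoclasts.

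The series measured polyadenylated RNA in 12 libraries of mouse bone marrow, 3 in each of 4 groups. BN1 cells carried the fusion BRD9-NUTM1, MA9 cells MLL-AF9 and ME cells MLL-ENL, and WT cells are labelled CD45.2(+) with no fusion named. All 4 groups came from the strain C57BL/6 and had been sorted as CD45.2+ cells, CD45.2 being an allelic form of the leukocyte protein CD45. The labels give no age, sex, vector or number of animals, and separate animals are not stated. The p-values therefore reflect library-to-library spread alone, and this could be technical in origin.

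Promoter sequences are shown for the 4 members that lie together on chromosome 7, because BN1 changed place among the leukemias from one to the next: it was below MA9 and ME at Cd33 and Siglecf and above both at Siglece and Siglecg. MA9 was below ME at all 4. The sequences are RefSeq's for GRCm38.p6, 250 bases before to 50 after the annotated start, 5′ to 3′ on the gene's strand, with matches to the ETS core GGAAGT and the RUNX core TGTGGT in capitals. Cd33 is chr7:43533122-43533421 (minus strand), Siglecf chr7:43351091-43351390 (plus), Siglece chr7:43660112-43660411 (minus) and Siglecg chr7:43407989-43408288 (plus, the first of its 2 entries). In GENCODE's annotation Cd33 reaches 43544428, so the Cd33 window lies inside the gene by that source.
Cd33: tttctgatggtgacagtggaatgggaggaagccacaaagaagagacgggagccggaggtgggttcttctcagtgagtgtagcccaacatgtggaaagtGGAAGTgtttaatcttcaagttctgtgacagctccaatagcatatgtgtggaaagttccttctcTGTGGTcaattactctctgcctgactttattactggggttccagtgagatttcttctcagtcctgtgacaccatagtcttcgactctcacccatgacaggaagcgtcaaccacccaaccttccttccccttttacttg
Siglecf: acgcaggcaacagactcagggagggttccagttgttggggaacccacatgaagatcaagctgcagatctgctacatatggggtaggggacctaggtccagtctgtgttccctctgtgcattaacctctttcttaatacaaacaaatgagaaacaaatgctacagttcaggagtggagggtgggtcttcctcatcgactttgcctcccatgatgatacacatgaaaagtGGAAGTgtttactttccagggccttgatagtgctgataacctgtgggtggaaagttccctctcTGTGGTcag
Siglece: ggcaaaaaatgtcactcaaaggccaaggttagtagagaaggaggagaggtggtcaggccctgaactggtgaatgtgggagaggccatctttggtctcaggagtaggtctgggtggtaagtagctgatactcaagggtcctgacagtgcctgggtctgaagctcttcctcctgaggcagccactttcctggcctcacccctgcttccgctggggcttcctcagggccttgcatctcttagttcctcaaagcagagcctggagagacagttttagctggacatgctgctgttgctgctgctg
Siglecg: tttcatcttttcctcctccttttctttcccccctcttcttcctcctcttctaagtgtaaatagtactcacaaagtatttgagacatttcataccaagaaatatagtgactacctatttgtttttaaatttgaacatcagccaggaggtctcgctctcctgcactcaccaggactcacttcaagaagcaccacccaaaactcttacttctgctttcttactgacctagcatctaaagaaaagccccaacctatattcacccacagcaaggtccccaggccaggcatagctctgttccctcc

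On both strands, 5 motifs were searched. The ETS core GGAAGT occurs in 24.1% of 27025 promoters of the same length, and the RUNX core TGTGGT in 16.9% of them. The C/EBP half-sites TTGCNNAA occur in 10.8%, the GATA core AGATAA in 11.4% and the E-box CANNTG in 72.1%. Cd33 and Siglecf each held 1 ETS and 1 RUNX match and no C/EBP or GATA match, with 2 E-box matches in Cd33 and 6 in Siglecf. Siglece and Siglecg held no match to any of the 5. The longest run shared by Cd33 and Siglecf was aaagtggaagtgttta, 16 bases around the ETS match, which occurs in 2 of the 27025 promoters. Every other pair among the 4 shared at most 10 bases in a row. A match is a description of letters and not a site.

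Libraries held 18292636 to 25732049 counts. ME replicate 3 stood apart from the other ME libraries, with LOC101056014 at 14800 CPM against 446 and 455 for replicates 2 and 1, and Lars2 was at 3510 CPM against 140 and 136. Without this library every call of a member against ME kept its direction and its side of the threshold, except Siglech between MA9 and ME. Levels are given as CPM, counts divided by the TMM-scaled library size in megacounts, mean ± SD over 3 libraries, and differences as log2 fold changes ± approximate SE from edgeR's quasi-likelihood test, with p-values adjusted over all genes tested (Benjamini-Hochberg) and a call at an adjusted p under 0.05. In sorted bulk samples fewer cells of a type and less RNA per cell cannot be told apart. Marker genes of neutrophils summed to 3520 to 3720 CPM in BN1, 310 to 340 CPM in MA9 and 146 to 196 in ME, against 40100 to 42400 in WT. Those of red cells reached at most 18.9 CPM in any leukemia library, against 20000 to 24600 in WT. Those of monocytes lay at 7300 to 7640 CPM in BN1, 3060 to 3310 CPM in MA9 and 5410 to 5540 in ME, against 4040 to 4510 in WT. T cell markers summed to at most 1.4 CPM in BN1, 5.74 in MA9 and 2.04 in ME, against at least 84.1 in WT. The part of these cells in the differences from WT was not tested.

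Set against WT, the family was lower at most genes in the MLL leukemias and split in BN1. In BN1 3 members were higher (Siglec1, Siglecf and Siglecg), 4 were lower (Cd22, Cd33, Siglech and Siglec15) and Siglece was not called, where 79.2% of all tested genes were called, 38.4% as higher and 40.8% as lower. The groups did not overlap at 7 of the 8, beside 80.3% of all genes. In MA9 only Siglecf was higher and the other 7 were lower, beside 80.1% of all genes called, 39.3% as higher and 40.8% as lower, and all 8 showed no overlap with WT, beside 80.9% of all genes. ME had the same split of 1 higher and 7 lower, beside 79.2% called, 39.0% as higher and 40.2% as lower, again without overlap at all 8, beside 79.8% of all genes. The median log2 fold change of the members was -1.54 in BN1, -3.91 in MA9 and -3.35 in ME, where the median over all tested genes was -0.01 in each. With Siglec15, which had no counts in the leukemias, set to its lower bound, these 3 medians stayed as they are. Siglec15 lay outside the middle values either way, so this does not probe the effect of the filter. Siglech and Siglec15 entered the test only through WT, so their difference from WT was built into the filter. They lower all 3 medians and add to the counts of lower members, so medians and counts are a description only. Of the rest, BN1 had log2 fold changes of -5.63 at Cd22 and -3.09 at Cd33. It had 0.01 at Siglece, 0.22 at Siglecg, 0.45 at Siglec1 and 0.56 at Siglecf. The summed level of the 8 members was 380.9 ± 9.97 CPM in BN1, 177.2 ± 4.35 in MA9 and 404.7 ± 5.29 in ME, against 864.9 ± 24.7 in WT. Since BN1, MA9 and ME were each set against the same 3 WT libraries, these comparisons are not independent of each other.

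**Figure D1:**
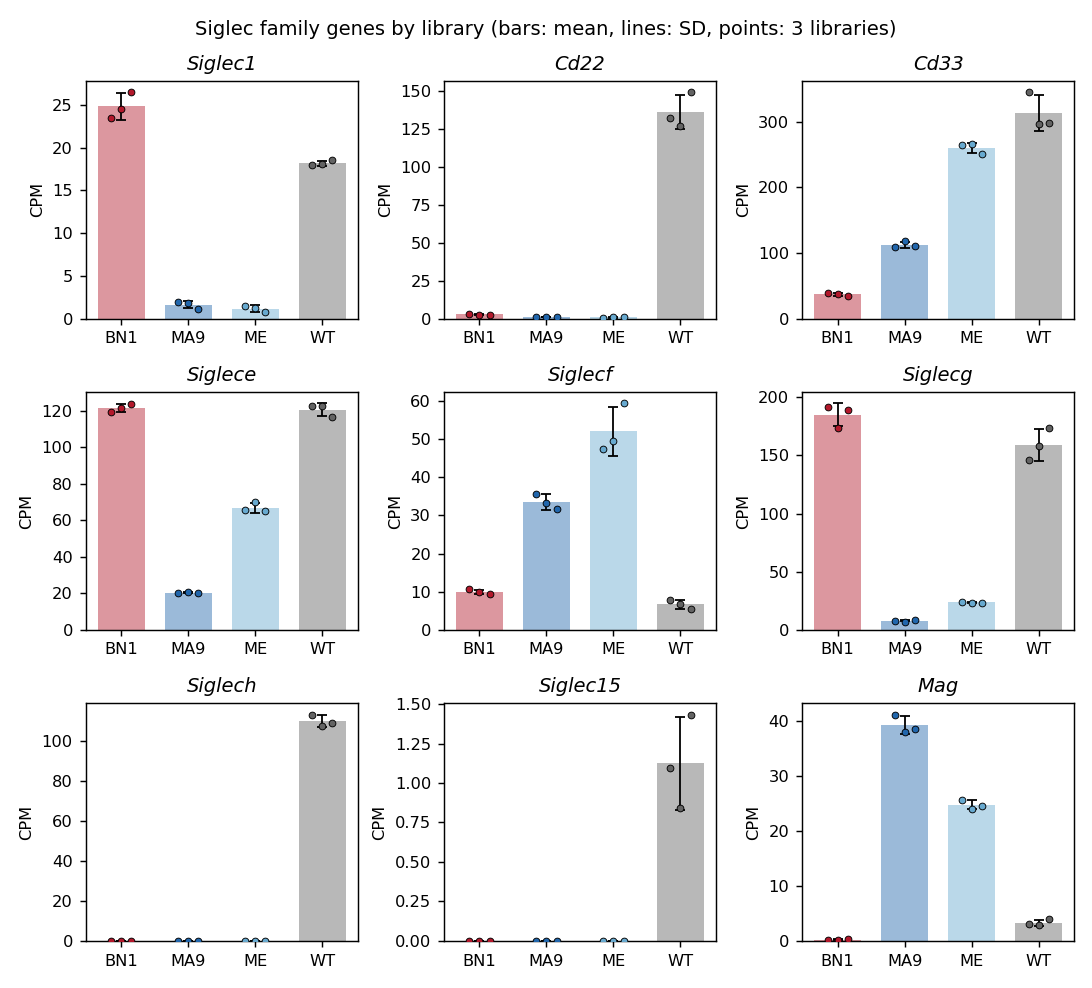
Level of each Siglec gene and of Mag in CPM on linear axes that differ between panels, with bars for the mean, lines for the SD and points for the 3 libraries of BN1, MA9, ME and WT. Siglec1 and Siglecg stood high in BN1 and WT, Siglecf in MA9 and ME, and Siglech and Siglec15 in WT alone among the groups.

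Siglecg encodes Siglec-G, an inhibitory receptor that recognises sialylated CD24. It measured 191.8, 173.7 and 189.3 CPM in BN1, 7.938, 7.076 and 8.163 in MA9 and 24.28, 23.44 and 22.95 in ME, against 146.3, 157.9 and 173.7 in WT. The lowest BN1 and the highest WT library both rounded to 173.7 CPM, with BN1 just above, and both groups lay far above every MLL library. The difference from WT was small in BN1 (log2 fold change 0.22 ± 0.06, adjusted p = 0.0011) and large in MA9 (-4.37 ± 0.08, adjusted p = 5.1e-27) and ME (-2.76 ± 0.07, adjusted p = 6.5e-24). Between the leukemias, Siglecg was 24.1-fold higher in BN1 than in MA9 (4.58 ± 0.08) and 7.86-fold higher than in ME (2.97 ± 0.07), and MA9 was below ME (-1.61 ± 0.09).

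Siglece encodes Siglec-E, an inhibitory receptor of neutrophils, monocytes and macrophages. It measured 119.3, 121.8 and 123.9 CPM in BN1, 20.15, 20.67 and 19.97 in MA9 and 65.43, 70.06 and 64.9 in ME, against 122.8, 122.5 and 116.9 in WT. BN1 and WT overlapped, MA9 was lowest and ME lay between. No difference was called between BN1 and WT (0.01 ± 0.05, adjusted p = 0.84), with a 95% interval of -0.09 to 0.11. MA9 (-2.57 ± 0.06) and ME (-0.85 ± 0.05) were below WT, and BN1 was above both MA9 (2.59 ± 0.06) and ME (0.86 ± 0.05).

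Cd33 encodes CD33, a receptor of myeloid cells that is a marker and drug target in human acute myeloid leukemia. It measured 39.04, 36.88 and 34.62 CPM in BN1, 109.0, 117.8 and 110.9 in MA9 and 264.1, 265.2 and 251.2 in ME, against 344.4, 296.7 and 297.4 in WT. The 4 groups did not overlap, and BN1 was lowest, where it had been highest at Siglecg. Against WT, Cd33 was 8.54-fold lower in BN1 (-3.09 ± 0.06, adjusted p = 9.6e-26), lower in MA9 (-1.47 ± 0.06) and slightly lower in ME (-0.27 ± 0.05, adjusted p = 6.8e-05). BN1 was also below MA9 (-1.61 ± 0.06) and ME (-2.82 ± 0.06), and MA9 below ME (-1.21 ± 0.06).

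Siglecf encodes Siglec-F, an inhibitory receptor that marks eosinophils and alveolar macrophages. It measured 10.61, 9.806 and 9.383 CPM in BN1, 35.77, 33.18 and 31.58 in MA9 and 47.34, 49.56 and 59.4 in ME, against 7.868, 6.754 and 5.458 in WT. The 4 groups did not overlap. It was the single member called higher than WT in every leukemia, by 0.56 ± 0.12 in BN1 (adjusted p = 2e-04), 2.32 ± 0.11 in MA9 and 2.95 ± 0.11 in ME. BN1 was below MA9 (-1.75 ± 0.10) and ME (-2.39 ± 0.10), and MA9 was below ME (-0.63 ± 0.09). The 6 eosinophil markers summed to 0.165 to 0.191 CPM in BN1, 4.1 to 5.28 CPM in MA9 and 1.26 to 1.86 in ME, against a lowest of 40.6 and a median of 44.9 in WT. Prg2, Il5ra and Ear6 were at 0 in BN1, Epx in MA9, and Epx, Ccr3 and Il5ra in ME. Prg3, an eosinophil granule gene, made up most of the MA9 sum and was called higher there, at 4.447 ± 0.617 CPM in MA9 against 2.27 ± 0.365 in WT, and lower in BN1 (0.08389 CPM) and ME (1.442 CPM). The part of this list in the Siglecf differences was not tested.

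**Figure D2:**
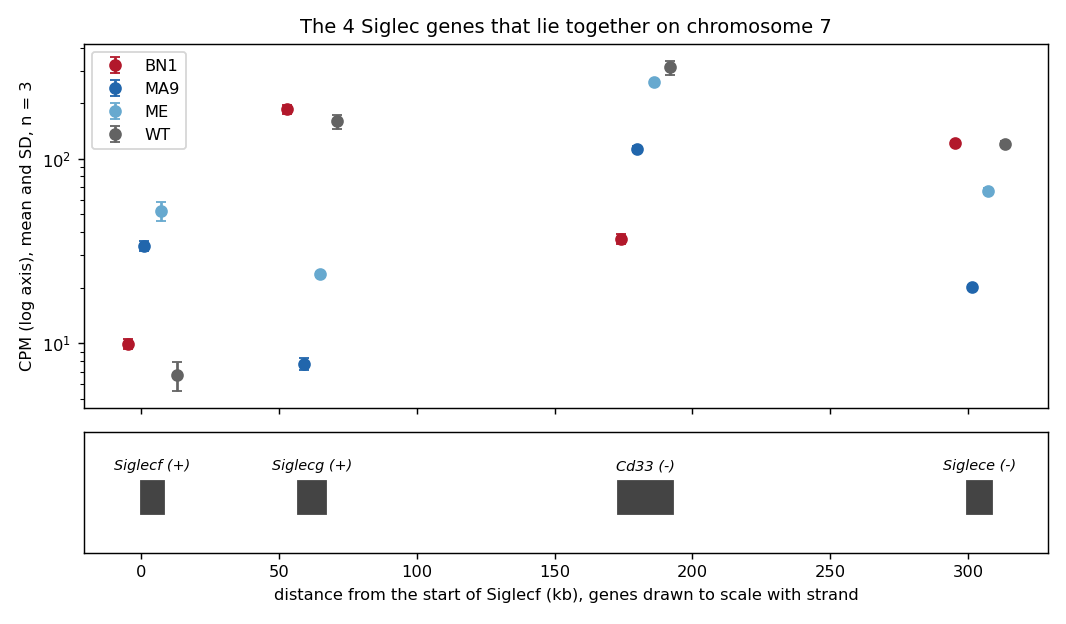
Siglecf, Siglecg, Cd33 and Siglece drawn to scale by distance from the start of Siglecf, with the mean level and SD of each group (3 libraries) in CPM on a log axis above each gene, points set side by side for legibility. BN1 was above MA9 and ME at Siglecg and Siglece and below both at Siglecf and Cd33.

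By GENCODE's annotation of GRCm38 (mm10), Siglecf lies at chr7:43351341-43359531, Siglecg at chr7:43408204-43418358, Cd33 at chr7:43524216-43544428 and Siglece at chr7:43651070-43660161. Cd22 (chr7:30865402-30880342), Mag (chr7:30899176-30914873) and Siglech (chr7:55768178-55778925) are elsewhere on the chromosome, Siglec1 is at chr2:131069220-131086765 and Siglec15 is on chromosome 18. The 4 clustered genes lie within 308.8 kb of chromosome 7, with 48.7, 105.9 and 106.6 kb between neighbours. MA9 was below ME at each of the 4, whereas the place of BN1 differed between neighbours: Siglecg, with BN1 the highest leukemia, sat between Siglecf and Cd33, with BN1 the lowest. Nkg7, a granule gene 18.71 kb from Siglecg, measured 143.8 ± 3.06 CPM in BN1, 22.57 ± 2.05 in MA9 and 6.412 ± 0.850 in ME, against 39.98 ± 4.30 in WT. Ceacam18, 1.77 kb from Siglece, was highest in ME at 6.503 ± 0.195 CPM, against 2.068 ± 0.353 in BN1, 1.16 ± 0.0517 in MA9 and 3.365 ± 0.327 in WT, an order unlike that of Siglece. Outside the cluster, Adam33, 5.41 kb from Siglec1, had 0.5018 ± 0.216 CPM in BN1 and no counts in MA9 or ME, against 5.771 ± 0.864 CPM in WT, so BN1 lay below WT there and above it at Siglec1. Tubgcp5, 15.23 kb from Siglech, was at 105.7 ± 2.25 CPM in BN1, 30.67 ± 1.60 in MA9 and 31.45 ± 1.72 in ME, against 32.08 ± 1.27 in WT.

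Cd22 encodes an inhibitory co-receptor of B cells. It measured 2.797, 2.699 and 2.719 CPM in BN1, 1.407, 1.122 and 1.263 in MA9 and 0.5803, 0.9976 and 1.111 in ME, against 132.3, 127.3 and 149.2 in WT. Every leukemia library was far below WT, by -5.63 ± 0.10 in BN1, -6.75 ± 0.11 in MA9 and -7.25 ± 0.12 in ME. BN1 was above MA9 (1.12 ± 0.19) and ME (1.62 ± 0.21). MA9 and ME did not overlap, yet their difference was not called (0.50 ± 0.25, adjusted p = 0.12, 95% interval -0.02 to 1.01). The 8 B cell markers summed to 0.495 to 0.823 CPM in BN1, 17.4 to 18.7 CPM in MA9, 17.65 of it from Cd79b, and 0.87 to 1.04 in ME, against 1120 to 1260 in WT. Among those named here, Ms4a1 and Blk were at 0 in both MA9 and ME, Ebf1 in MA9 and Pax5 in ME. The list's part in the Cd22 difference was not tested. Of the 50-base words of Cd22, 7.84% also occur in other annotated genes, mostly the overlapping antisense gene Gm29439. The deposited counts hold no gene of that name, and any effect of the overlap on Cd22 was not tested.

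Siglec1 encodes sialoadhesin, a macrophage receptor with a long ectodomain and no inhibitory motif. It measured 23.41, 24.56 and 26.46 CPM in BN1, 1.959, 1.812 and 1.166 in MA9 and 1.499, 1.27 and 0.7224 in ME, against 17.93, 18.07 and 18.52 in WT. BN1 lay above WT without overlap and the MLL leukemias far below both. The difference from WT was 0.45 ± 0.11 in BN1 (adjusted p = 0.00076), -3.46 ± 0.16 in MA9 and -3.93 ± 0.17 in ME. BN1 was 15.1-fold above MA9 (3.91 ± 0.15) and 20.97-fold above ME (4.38 ± 0.16). MA9 and ME overlapped and did not differ at the threshold (0.48 ± 0.24, adjusted p = 0.12, 95% interval -0.01 to 0.97). Without MA9 replicate 3, the difference was called (0.67, adjusted p = 0.031). Marrow macrophage markers summed to 151 to 164 CPM in BN1, 229 to 241 CPM in MA9 and 151 to 166 in ME, against 269 to 288 in WT. Adgre1, Vcam1 and Slc40a1 made up much of these sums, and Spic was at 0 in ME. Cd163, a scavenger receptor on the same list, had the order of Siglec1, with 36.93 ± 2.37 CPM in BN1, 7.028 ± 0.708 in MA9 and 6.408 ± 0.762 in ME, against 14.76 ± 0.664 in WT. No other gene on the list had this order. Adgre1 (103.5 CPM in MA9 against 63.14 in BN1), Vcam1 (90.42 against 51.2) and Slc40a1 (29.24 against 3.102) were higher in MA9 than in BN1. Mertk, C1qa, C1qb, C1qc, Cd5l, Spic and Slc40a1 were lower in BN1 than in WT. Cd163 was singled out after its values were seen, and the list's part in the Siglec1 differences was not tested.

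Siglech encodes a DAP12-coupled receptor of plasmacytoid dendritic cells. It had 2 counts over the BN1 libraries, 10 over MA9 and 1 over ME, against 6154 over WT, where it measured 113.0, 107.5 and 108.9 CPM. The highest leukemia library, in MA9, stood at 0.1944 CPM. By counts per effective depth it was 3993-fold lower in BN1 (counting interval 1105 to 32980), 699.7-fold lower in MA9 (380.2 to 1460) and 6675-fold lower in ME (1198 to 263700) than in WT. The 10 markers of plasmacytoid dendritic cells summed to 449 to 475 CPM in BN1, 338 to 366 CPM in MA9 and 308 to 326 in ME, against 1030 to 1140 in WT, with Klk1 at 0 in BN1 and Klk1 and Pacsin1 at 0 in MA9. Irf8, which other myeloid cells also express, carried most of the leukemia sums, at 315.6 CPM in BN1, 271.7 in MA9 and 216.0 in ME, against 402.0 in WT. Tlr7 was higher in BN1 than in WT, at 78.14 against 40.02 CPM. Spib stood at 0.1777, 0.01438 and 0.04534 CPM in BN1, MA9 and ME, against 296.8 in WT. Ly6d, Ccr9, Cox6a2, Klk1 and Pacsin1 each had 15 or fewer counts per leukemia group, and they and Spib passed the filter mainly through WT. The list's part in the Siglech difference was not tested. Between leukemias the calls at Siglech rest on a handful of counts: BN1 was below MA9 (adjusted p = 0.014) and MA9 above ME (adjusted p = 0.013), on 2 against 10 and on 10 against 1 counts. The BN1 against MA9 call was lost without BN1 replicate 1 (adjusted p = 0.075). The MA9 against ME call was lost without ME replicate 2 (adjusted p = 0.074) and without ME replicate 3 (adjusted p = 0.053).

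Siglec15 encodes another DAP12-coupled Siglec, known for its role in osteoclasts. It had 0 counts in all 9 leukemia libraries, against 22, 15 and 26 in WT (1.124 ± 0.296 CPM). With a floor of 3 counts over the group, the level was at least 27.25-fold lower in BN1, at least 23.88-fold lower in MA9 and at least 22.78-fold lower in ME. The edgeR calls had adjusted p-values of 2.5e-07, 4.6e-07 and 5.9e-07 in BN1, MA9 and ME, whereas DESeq2 did not call the gene in any (adjusted p = 0.11, 0.12 and 0.12). Osteoclast markers summed to 96.6 to 103 CPM in BN1, 34.1 to 38.7 CPM in MA9 and 28.0 to 32.8 in ME, against about 3030 in WT. Mmp9, a gene that neutrophils also express, made up most of the sum in BN1 and WT. It stood at 97.52 CPM in BN1, 13.96 in MA9 and 2.992 in ME, against 2959 in WT. Acp5 made up most of the sum in MA9 and ME. It stood at 1.334, 21.74 and 27.02 CPM in BN1, MA9 and ME, against 70.26 in WT. Ctsk was low in every group, at 0.4715 CPM in BN1, 0.1389 in MA9 and 0.2268 in ME, against 0.6016 in WT. It was called lower in MA9 and ME than in WT and not called between BN1 and WT (adjusted p = 0.50). Atp6v0d2, too low to be tested, had 0.245, 0.3384 and 0.04635 CPM in BN1, MA9 and ME, against 0.3101 in WT. Dcstamp and Calcr were at 0 in every group and Ocstamp in MA9, and the part of this list in the Siglec15 difference was not tested. Tyrobp, the adaptor of Siglech and Siglec15, stood at 665.4 ± 17.3 CPM in BN1, 370.8 in MA9 and 388.5 in ME, against 630.4 in WT, and did not pass the test between BN1 and WT (adjusted p = 0.12).

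Mag encodes myelin-associated glycoprotein, a Siglec of myelinating glia in textbook accounts. It measured 0.2057, 0.08996 and 0.2681 CPM in BN1, 41.2, 38.01 and 38.63 in MA9 and 25.63, 24.03 and 24.62 in ME, against 3.038, 2.814 and 3.969 in WT. The 4 groups did not overlap. Mag was 16.96-fold lower in BN1 than in WT (-4.04 ± 0.27) and higher in MA9 (3.58 ± 0.12) and ME (2.92 ± 0.12). BN1 was 203.5-fold below MA9 (-7.63 ± 0.18) and 128.4-fold below ME (-6.96 ± 0.19), and MA9 was above ME (0.67 ± 0.09). Cd22, 18.83 kb away, ran in another order.

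**Figure D3:**
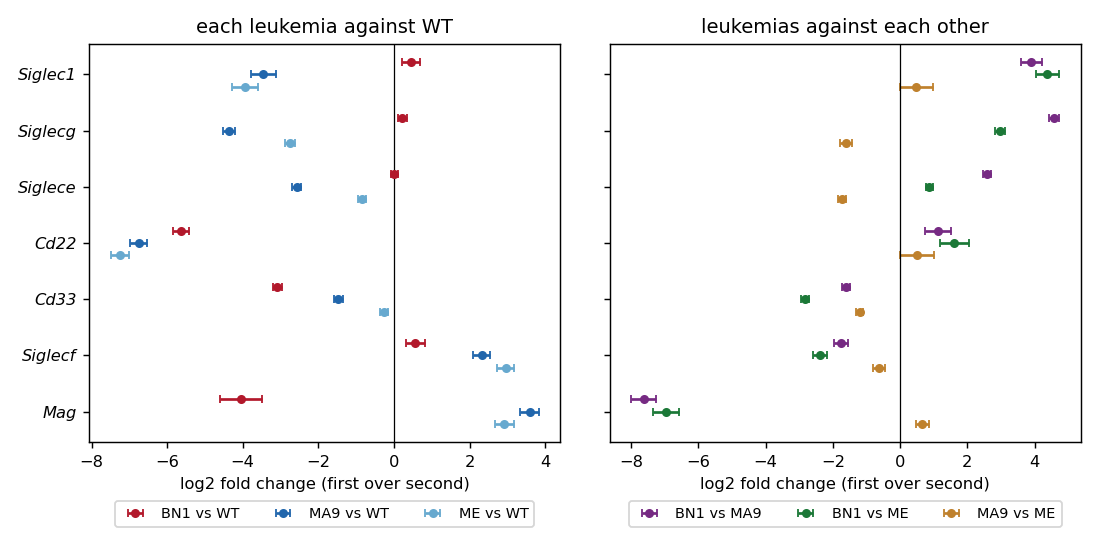
Log2 fold changes of 6 members and Mag with 95% intervals from edgeR, each leukemia against WT on the left and the leukemias against each other on the right. Siglech and Siglec15 are left out because the leukemias held 10 or fewer counts per group. Against MA9 and ME, BN1 was higher at Siglec1, Siglecg, Siglece and Cd22 and lower at Cd33, Siglecf and Mag.

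Between leukemias, 4 members were higher and 3 lower in BN1 than in MA9, with 67.7% of all genes called, 32.8% as higher and 34.9% as lower, and 7 did not overlap, as was so for 70.1% of all genes. Against ME, 4 were higher and 2 lower in BN1, with 64.7% called, 31.8% as higher and 33.0% as lower, and 6 did not overlap, as for 66.9% of all genes. MA9 against ME had 1 higher and 4 lower, with 40.6% called, 20.2% as higher and 20.4% as lower. Here 6 did not overlap, as for 48.6% of all genes. The 1 higher was Siglech, on 10 against 1 counts, and its call was lost without ME replicate 3. Siglech was also 1 of the 3 lower in BN1 than in MA9, on 2 against 10 counts. The median log2 fold change of the members was 0.56, 0.72 and -0.32 in the 3 comparisons, in the order above. Over all genes it was -0.01, -0.01 and 0.00. Siglec15, at 0 counts in all of them, was taken as 0. That 0 was a middle value for BN1 against MA9 and for MA9 against ME. For BN1 against ME, Siglech on 2 against 1 counts was a middle value. The members' medians therefore rest partly on genes hardly detected in the leukemias and are a description only.

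Per kilobase of exon, so that genes can be set beside each other, Siglece supplied 56.4% and Siglecg 33.0% of the summed level of the family in BN1. In MA9 Cd33 supplied 36.6%, Siglecf 30.3% and Siglece 27.7%. In ME the shares were 38.6% for Siglece, 35.8% for Cd33 and 18.5% to 22.7% over the libraries for Siglecf. WT was spread more widely, with 32.0% for Siglece, 19.7% for Cd33, 16.2% for Siglecg, 15.9% for Siglech and 13.2% for Cd22. Cd33 depends on the length taken, 7771 bp for the union of its exons and 1876.5 bp for the median coding transcript. With the shorter length Cd33 rather than Siglece led in ME (62.1%) and in WT (38.6%), while Siglece still led in BN1 (48.7%) and Cd33 in MA9 (63.8%).

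**Figure D4:**
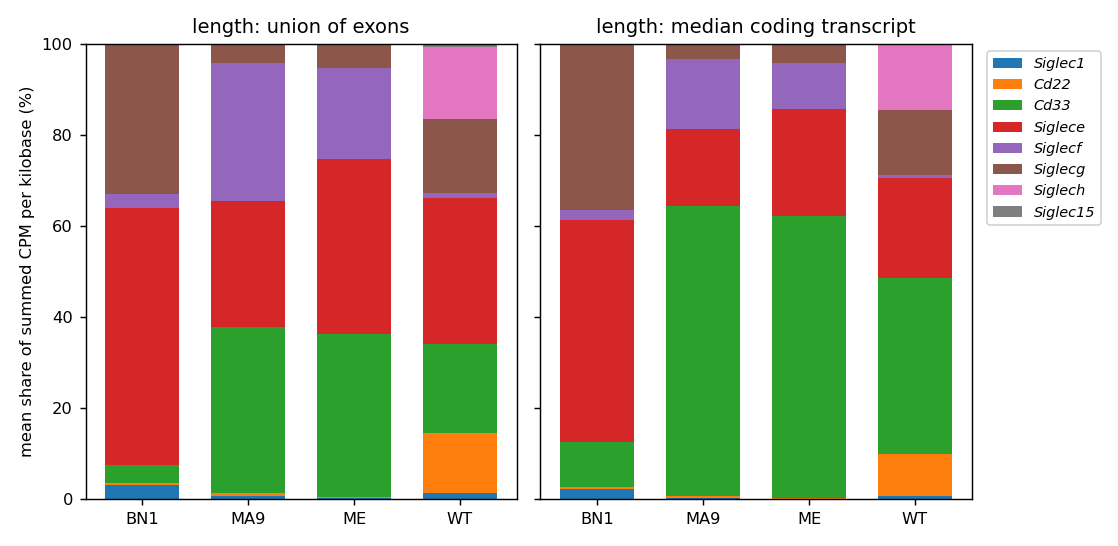
Mean share of each member in the summed CPM per kilobase of the family, with length taken as the union of exons on the left and as the median coding transcript on the right. Siglece and Siglecg made up most of the family in BN1 under both lengths, and the share of Cd33 in MA9 and ME moved with the length used.

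Over the 12 libraries and 10908 candidate genes, the gene most like each member by Pearson's r of log2(CPM + 0.5) was Ss18l1 for Siglec1 (0.993), Adpgk for Cd22 (0.999), Cchcr1 for Cd33 (0.994), Ptpn1 for Siglece (0.993), Prkar2a for Siglecf (0.991), Psap for Siglecg (0.997) and Tnfrsf13c for Siglech (0.9996). The next were Stk38l and Smurf1 for Siglec1, Sytl3 and Itgb2 for Cd22, Lmna and Plscr1 for Cd33, Xrcc5 and Lrrc42 for Siglece, Zbtb38 and Tm6sf1 for Siglecf, Gbp6 and Lyz2 for Siglecg, and Tal1 and Tbx21 for Siglech. With 4 groups of 3 libraries, these values mainly describe the pattern of the group means, whose exact order can differ between a member and its like gene. Lyz2, the lysozyme of myeloid cells, followed Siglecg with 9060 CPM in BN1, 818.2 in MA9 and 1577 in ME, against 8523 in WT.

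Of the 6 genes of sialic acid synthesis, 3 were higher and 3 lower in BN1 than in WT, and 3 higher and 2 lower in MA9 and in ME. Over all genes, 79.2%, 80.1% and 79.2% were called in these 3 comparisons, split about evenly in direction, so these counts do not set the list apart. Its median log2 fold change was -0.07 in BN1, 0.24 in MA9 and 0.18 in ME. Cmah, which turns the acetyl form of sialic acid into the glycolyl form, stood at 0.2457 ± 0.0535 CPM in BN1, 0.9263 ± 0.134 in MA9 and 0.2673 ± 0.0577 in ME, against 128.9 ± 11.7 in WT. Its log2 fold change was -8.99 in BN1, -7.11 in MA9 and -8.90 in ME. Gne, the first enzyme of synthesis, was lower than WT in BN1 (31.04 CPM, log2 fold change -0.43) and higher in MA9 (75.95 CPM, 0.86) and ME (117.4 CPM, 1.49), against 41.73 CPM in WT. Nans, which makes the sialic acid phosphate, was higher in each, at 110.0 CPM in BN1, 124.6 in MA9 and 115.5 in ME, against 53.89 in WT. Cmas, which activates sialic acid, was lower in each, at 40.49, 60.1 and 63.58 CPM in BN1, MA9 and ME, against 99.08 in WT.

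Of 14 tested sialyltransferases, 2 were higher and 10 lower in BN1, 5 and 9 in MA9 and 4 and 10 in ME, where 40.8%, 40.8% and 40.2% of all genes were lower. St3gal6, St6galnac3, St8sia1 and St8sia6 passed the filter essentially through WT and St8sia5, with no count in WT, through the leukemias, so their directions were built in and the counts are a description only. St6gal1, which makes the linkage that CD22 binds, had 0.1735 CPM in BN1, 1.343 in MA9 and 0.9131 in ME, against 61.41 in WT. St3gal5, which makes the ganglioside GM3, had 8.557, 4.586 and 7.11 CPM in BN1, MA9 and ME, against 263.0 in WT. St6galnac6 was higher in each leukemia, at 28.76, 40.72 and 42.48 CPM, against 16.52 in WT. The lysosomal sialidase Neu1 was higher in each, at 175.1 ± 5.69 CPM in BN1, 138.3 ± 8.13 in MA9 and 216.6 ± 10.1 in ME, against 80.95 ± 1.85 in WT. Neu3, the other sialidase tested, was lower in BN1 (2.781 CPM) and MA9 (2.806 CPM) than in WT (5.339 CPM). It was not called between ME (4.034 CPM) and WT.

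**Figure D5:**
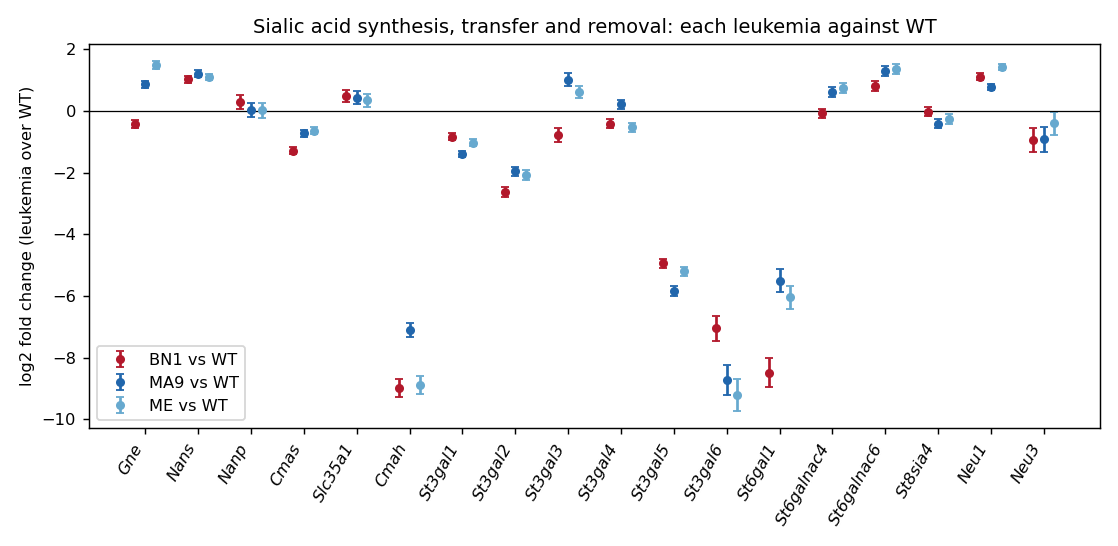
Log2 fold change over WT with 95% intervals from edgeR for tested genes of sialic acid synthesis, transfer and removal. Cmah, St6gal1, St3gal5 and St3gal6 were lower in all 3 leukemias, Nans, St6galnac6 and Neu1 higher in all 3, and Gne lower in BN1 and higher in MA9 and ME. St3gal6 passed the filter essentially through WT, so its direction was built in.

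Among the 12 adaptor and signalling genes, 1 was higher and 9 lower in BN1, 1 and 10 in MA9 and 1 and 10 in ME, where 79.2%, 80.1% and 79.2% of all genes were called. The median log2 fold change of this list was -0.60 in BN1, -0.86 in MA9 and -0.65 in ME, against -0.01 over all genes. The Src-family kinase Fgr stood at 125.7 ± 5.27 CPM in BN1, 17.75 ± 0.925 in MA9 and 48.31 ± 3.06 in ME, against 342.4 ± 3.21 in WT, the same order among leukemias as Siglece and Siglecg. Ptpn6, the phosphatase recruited by ITIMs, was at 487.5 CPM in BN1, 425.4 in MA9 and 430.5 in ME, against 634.9 in WT. Of the 3 glycoprotein ligands, Cd24a, the partner of Siglec-G, was at 15.74 ± 0.101 CPM in BN1, 158.5 ± 10.4 in MA9 and 30.96 ± 4.22 in ME, against 1211 ± 12.8 in WT. Siglecg and Cd24a thus differed in order: the leukemia with most Siglecg had least Cd24a, and MA9 the reverse. Spn (CD43) was higher than WT in each leukemia and Ptprc (CD45) lower in each. Between leukemias, 8 of the 12 adaptor and signalling genes were higher and 3 lower in BN1 than in MA9, 6 and 3 in BN1 against ME, and 0 and 7 in MA9 against ME. Over all genes, 67.7%, 64.7% and 40.6% were called in those comparisons, and the list's medians were 0.41, 0.32 and -0.22.

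Among 12 other ITIM-bearing receptors of myeloid cells, 4 were higher and 6 lower in BN1, 4 and 8 in MA9 and 3 and 8 in ME. With 79.2%, 80.1% and 79.2% of all genes called, these counts do not set the list apart, and its medians were -0.20, -0.67 and -0.74. Fcgr2b, the inhibitory Fc receptor, was at 218.5 ± 8.97 CPM in BN1, 123.3 ± 1.64 in MA9 and 149.0 ± 4.12 in ME, against 96.6 ± 2.28 in WT. Lilrb4a was at 201.8 ± 11.7 CPM in BN1, 43.07 ± 4.36 in MA9 and 40.98 ± 1.498 in ME, against 685.7 ± 44.9 in WT. Clec12a, a lectin of myeloid cells, was higher in MA9 (548.6 ± 41.1 CPM) and ME (469.8 ± 56.1 CPM) than in WT (247.7 ± 14.6 CPM), with BN1 at 247.0 ± 8.86 CPM. Cd300lf was lower in each leukemia, at 15.23 ± 0.564 CPM in BN1, 17.63 ± 1.48 in MA9 and 41.71 ± 1.53 in ME, against 208.2 ± 13.9 in WT. Between leukemias, 7 of these 12 receptors were higher and 3 lower in BN1 than in MA9, and again 7 and 3 in BN1 against ME, beside 67.7% and 64.7% of all genes called, with Lilrb4a (2.23 and 2.30) and Ceacam1 (1.39 and 1.27) showing the 2 highest log2 fold changes in both.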

How the data were processed

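Polyadenylated RNA was measured in 12 libraries of CD45.2+ bone marrow cells, 3 each of BN1, MA9, ME and WT. The authors deposited raw read counts per gene symbol; HISAT2, featureCounts, DESeq2 and the build mm10 are named per the submitters' processing notes. Per the labels' protocols, libraries were made with the TruSeq Stranded mRNA kit after sorting. Strand use, annotation release, handling of multiply matched reads and tool versions were not given in the sources used here. Of the symbols, 10859 had no count in any library.

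The members, gene lists and tests were chosen with earlier results of these data known. Counts were filtered with filterByExpr (15334 genes kept), scaled with TMM (factors 0.928 to 1.05) and fitted in 1 robust quasi-likelihood model in edgeR 4.0.16 (R 4.3.3) over all 12 libraries, with Benjamini-Hochberg adjustment over all genes and calls at an adjusted p under 0.05. The biological coefficient of variation was 5.87%. Approximate SEs are the fold change over the root of the F statistic. Ratios of few counts carry 95% counting intervals, and 0 counts a floor of 3 over the group. These cover counting error only. Pathway genes were named as up to 3 called genes per direction and comparison without overlap whose higher group reached a mean of 5 CPM or more. A few unnamed by that rule, Ptpn6 among them, were chosen after their values were seen. Siglecl2 is not analysed here. Genes like each member were the 3 with the highest Pearson correlation. Alternatives were DESeq2 1.42.0, limma-voom 3.58.1, other scalings and filters, fits of 2 groups, a replicate block and each library left out. Figures were drawn with matplotlib 3.10.9. Of the 12 pairs of libraries within groups, none was a duplicate, the mean chi-square of counts being at least 2.005. Promoters were found in the RefSeq table for 6 of the 8 members. Some single marker values are not reported here.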

Additional observations from a re-analysis of the deposited data

Results flagged for a closer look

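Results are listed because a gene differed from WT in opposite directions in BN1 and in an MLL leukemia. The direct difference between the leukemias was tested in edgeR. Its direction follows from how the genes were picked, so it gives a size and no further support. Siglec1 was above WT in BN1 and below it in MA9 and ME, with a log2 difference of 3.91 from MA9 and 4.38 from ME. Siglecg did the same, with 4.58 from MA9 and 2.97 from ME. Mag went the other way, with BN1 below and MA9 and ME above WT, and BN1 differed by -7.63 from MA9 and by -6.96 from ME. No cause of these differences was tested.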

How the results depend on the processing

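All counts of called genes and members stayed within 1.5 times their values under every alternative run, and no member's log2 fold change turned in sign among called differences. Over the members, 945 alternative values kept direction and side of the threshold, 8 lost a call and 1 gained one. Mag was not part of this count. Siglec15 against WT was not called in DESeq2 (log2 fold change -7.26, -7.07 and -7.01 in BN1, MA9 and ME) and was not tested under the filter of 5 CPM in 3 libraries. Siglech fell short when only the 2 groups compared were fitted, between BN1 and MA9 (adjusted p = 0.063) and between MA9 and ME (adjusted p = 0.075). The causes were not tested. Leaving out 1 library gave 11750 to 12220 called genes for BN1 against WT, 11918 to 12344 for MA9 against WT, 11766 to 12197 for ME against WT, 9790 to 10501 for BN1 against MA9, 9310 to 10003 for BN1 against ME and 5517 to 6360 for MA9 against ME, with 7, 8, 8, 6 to 7, 6 and 4 to 6 members called in that order. The summed family level was 185.8 CPM in MA9 and 804.8 CPM in WT with raw library totals, and 889.9 CPM in WT with RLE factors. Depth limits Siglech and Siglec15 in the leukemias, at 10 or fewer counts per group.

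Same-numbered libraries did not deviate together (correlations -0.118 to 0.112 over 18 pairs, 2 of them over 0.1, and 4 of 12 libraries correlated best with their own number). With a replicate block, 12042, 12162, 12014, 10195, 9743 and 5967 genes were called in the 6 comparisons in the order above, with 7, 8, 8, 7, 6 and 5 members, and no member's call changed.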
